A study of Mus musculus with 5 samples.

Results

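Nlrc5 is the transcriptional co-activator of MHC class I genes, and its transcript was lower in N-myc knockout than in control lenses of embryonic mice. The 10 genes described here are Nlrc5 and 9 genes of the pathway it is known to act on, namely B2m, H2-K1, H2-D1, Tap1, Tap2, Tapbp, Psmb8, Psmb9 and Psmb10. They were found by gene symbol in the deposited count table of 12370 symbols. Of the 10 genes, 6 had a row in that table. Tap1, Tap2, Psmb8 and Psmb9 had none, so whether their levels followed Nlrc5 could not be asked. Nlrc5 was chosen for its lower level in the knockout libraries, so its own values are given as a description with no test. The other genes were chosen as textbook partners and targets of Nlrc5, and the question was whether they were lower where Nlrc5 was lower.

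MHC class I molecules show short peptides from inside a cell to T cells at its surface. The proteasome cuts proteins into peptides, the TAP transporter carries these into the endoplasmic reticulum, and tapasin and other chaperones load them onto a heavy chain bound to beta-2 microglobulin. NLRC5 does not bind DNA by itself, and is known to act through an assembly of RFX, CREB/ATF and NF-Y factors on neighbouring X and Y boxes of class I promoters. The lens is a tissue without blood vessels inside its capsule and belongs to the immune-privileged eye.

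RNA was sequenced from lenses of mice at embryonic day 14, in 3 control and 2 knockout libraries. All embryos carried N-myc alleles flanked by loxP sites. The knockout embryos also carried 1 copy of Mlr10-Cre, a transgene known to express Cre recombinase in lens cells from a modified alpha A-crystallin promoter, and the controls were Cre-negative. Some controls described in the labels had loxP-flanked c-myc as well, and no source used here ties a library to a control genotype. Lenses were lysed animal by animal and the lysates were pooled before the RNA was purified, so a library stands for a pool. Effects of the Cre transgene and of the deletion cannot be told apart in any result below. No source used here names the mouse strain.

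The libraries held 13162384 to 13746416 counts. Mycn, the gene that encodes N-myc, had 2066, 1955 and 1848 counts in the control libraries, against 801 and 1141 in the knockout libraries. Its level was 2.16-fold lower (log2 fold change -1.11), so Mycn counts were reduced and not absent. The source of the remaining counts was not tested. All 14 lens marker genes were present, and their summed level was 86852 to 108423 CPM (counts per 1000000, scaled for library composition) in the controls and 80522 to 94358 CPM in the knockouts. The knockout libraries differed from each other in cells other than lens. Summed mesenchyme markers stood at 2383 CPM in knockout replicate 1 and 777 in replicate 2, against 607 to 897 in the controls, and summed retina markers at 94.9 and 203 CPM, against 60.7 to 63.8. By edgeR, at an adjusted p under 0.05, 5 of 14 lens, 1 of 11 endothelial and 1 of 6 red blood cell markers fell, and 4 of 11 mesenchyme and 7 of 8 retina markers rose, beside 8.51% of all genes tested that were lower and 7.98% that were higher. When 1 library was left out, the markers called ran from 0 to 6 lower for lens, from 0 to 8 higher for mesenchyme and from 0 to 7 higher for retina. All 3 counts were 0 without control replicate 2. Without control replicate 3, 1 lens, 1 mesenchyme and 1 retina marker were called, without knockout replicate 1 they were 1, 0 and 7, without control replicate 1 mesenchyme and retina gave 2 and 4, and without knockout replicate 2 they gave 8 and 4. The endothelial call was lost in each of these fits.

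X and Y boxes are shown here because they are the promoter elements through which Nlrc5 is known to reach its targets. RefSeq promoter windows (GRCm38.p6), each reaching from 250 bases before to 50 bases after a transcript start, were found for 8 of the 10 genes, with Nlrc5 and Tap2 unmatched. The letters TGACG (the core of the X2 box) and ATTGG (the Y box) were searched on both strands. In B2m, H2-K1 and H2-D1 they stood in the same order with 20 bases between them, so that their first bases were 25 bases apart in all 3 genes. The stretches below run 5′ to 3′ on the gene's strand, and capitals mark the X2 core and the Y box. They also mark exact matches to an interferon element in B2m (GAAA repeated after 2 further bases) and to an NF-kappaB site in the heavy chains. Forms of any of these elements with other letters were not searched, so the capitals cannot show that a gene lacks one.
B2m: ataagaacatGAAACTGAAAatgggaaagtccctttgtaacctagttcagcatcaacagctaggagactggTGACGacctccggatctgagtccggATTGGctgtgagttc
H2-K1: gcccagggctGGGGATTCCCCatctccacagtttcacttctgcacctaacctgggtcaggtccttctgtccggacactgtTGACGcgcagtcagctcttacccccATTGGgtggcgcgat
H2-D1: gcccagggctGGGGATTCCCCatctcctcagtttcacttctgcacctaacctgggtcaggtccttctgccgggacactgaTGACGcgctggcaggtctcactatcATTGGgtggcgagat
The B2m stretch is chr2:122147538-122147648 on the plus strand, the H2-K1 stretch chr17:34000349-34000468 on the minus strand and the H2-D1 stretch chr17:35262913-35263032 on the plus strand. TGACG began 78 bases before the start of B2m and 101 bases before that of H2-D1, and 41 or 55 bases before the 2 listed starts of H2-K1.

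Of all 32851 windows, 20.8% held TGACG, 37.4% held ATTGG and 0.0944% held the pair at this spacing, on either strand. The interferon element was in 3.44% of the windows and the NF-kappaB site, searched with exactly the letters capitalised in H2-K1, in 0.0304%. The window of Tapbp, the gene for tapasin, held 2 ATTGG matches and no TGACG. The windows of Tap1 and Psmb9 overlap on opposite strands and held the same TGACG and ATTGG matches, without this spacing. The Psmb8 window held TTCNNNGAA, the interferon gamma element (8.3% of windows). The window of Psmb10 held CACGTG, the E box that MYC proteins bind (7.15% of windows). These are letter matches in the reference sequence and were not measured as binding sites.

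Nlrc5 itself lies on chromosome 8 from 94434356 to 94527272 (GRCm38, plus strand). Its normalised level was 31.6, 37.2 and 43.5 CPM in control replicates 1 to 3, against 3.22 and 3.87 CPM in knockout replicates 1 and 2. Both knockout libraries lay far below every control. Controls held 403, 490 and 573 raw counts and knockouts 45 and 54, so even the lowest control held 7.46 times the counts of the highest knockout. The means were 37.4 ± 5.95 CPM (SD, n = 3) and 3.55 ± 0.462 CPM (SD, n = 2), a fitted log2 fold change of -3.40 (SE 0.19). Over 13 alternative analyses it ran from -3.64 to -3.27. In these bulk samples fewer cells that express Nlrc5 and less Nlrc5 RNA per cell cannot be told apart.

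The other genes of the pathway did not show a lower level of this size. Tapbp rose, and 0 of the 4 target genes that could be tested passed as lower by edgeR, DESeq2 or limma-voom, with 0 lower at an unadjusted edgeR p under 0.05. Over all 12035 genes tested, edgeR's quasi-likelihood test called 16.5% at an adjusted p under 0.05, of which 7.98% of genes were higher and 8.51% lower in the knockouts. The 4 tested targets had log2 fold changes from -0.46 to 0.95 with a median of 0.58, beside a median of 0.00 over all genes tested. H2-D1 did not pass the filter on low counts, and DESeq2 gave H2-K1 no adjusted p. Tap1, Tap2, Psmb8 and Psmb9, which had no row, could not be tested. Of the 4 tested targets, B2m and H2-K1 had the promoter pair described above, and no exact match to it was found in the windows of Tapbp and Psmb10. The 95% intervals of the 4 fold changes reached down to -1.32 at the lowest, whereas Nlrc5 stood at -3.40.

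**Figure D1:**
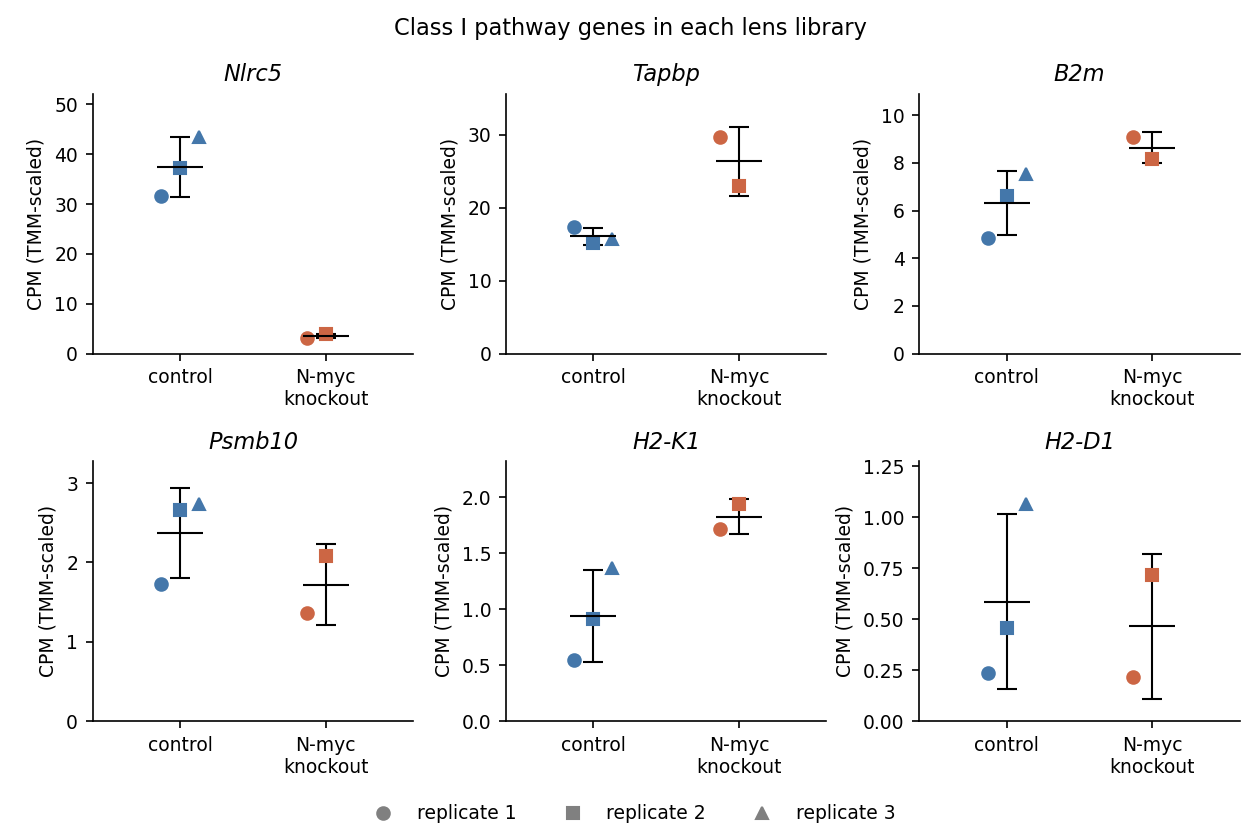
Level of the 6 class I pathway genes found in the table, in CPM on a linear axis from 0, for each control (blue) and N-myc knockout (orange) lens library; the horizontal line and bars are the mean and SD of 3 and 2 libraries. The Nlrc5 points of the knockouts (3.22 and 3.87 CPM) sit far below those of the controls (31.6 to 43.5 CPM), while Tapbp, B2m and H2-K1 are higher in both knockout libraries than in any control, and Psmb10 and H2-D1 overlap.

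B2m encodes beta-2 microglobulin, the light chain shared by all class I molecules. It was at 4.86, 6.60 and 7.51 CPM in the controls and 9.09 and 8.18 CPM in the knockouts. The groups did not overlap, with the knockouts higher, as for 25.5% of all genes tested. The log2 fold change was 0.45 (SE 0.22, 95% interval -0.06 to 0.95, adjusted p = 0.18 in edgeR), so the difference did not pass the test. The B2m transcript has a GC content of 41.2%, within the fifth of tested genes with the lowest GC content, whose median log2 fold change was -0.24. After removal of the trends of each library with length and GC content of transcripts (the length and GC offset), B2m stood at a log2 fold change of 0.95 and passed (adjusted p = 0.03 in edgeR), the only one of 13 alternatives in which it did.

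H2-K1 and H2-D1 encode the classical heavy chains, which hold the peptide. H2-K1 was at 0.549, 0.911 and 1.37 CPM in the controls and 1.72 and 1.94 CPM in the knockouts, from 7, 12 and 18 counts against 24 and 27. Both knockout libraries were above the highest control, yet on so few counts the log2 fold change of 0.95 (SE 0.44, 95% interval -0.08 to 1.97) did not pass (adjusted p = 0.17 in edgeR). H2-D1 had 3, 6 and 14 control counts against 3 and 10 in knockouts, and these ranges overlap. Without the filter on low counts its log2 fold change was -0.33 (adjusted p = 0.8 in edgeR). Heavy chain genes resemble each other closely and vary between mouse strains, so counts of single members are uncertain.

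Tapbp encodes tapasin, which bridges the TAP transporter and the heavy chain during loading. It was at 17.4, 15.1 and 15.7 CPM in the controls and 29.7 and 23.03 CPM in the knockouts. All knockout values exceeded all control values, by more than the spread between the controls. Tapbp rose 1.64-fold, from 16.1 ± 1.19 (SD, n = 3) to 26.4 ± 4.72 CPM (SD, n = 2; log2 fold change 0.71, SE 0.15, adjusted p = 0.023 in edgeR). This was the single call among the tested targets, and it was in the direction opposite to Nlrc5. No exact match to the X2 and Y pair of B2m and H2-K1 was found in the Tapbp promoter window. That window, chr17:33919228-33919527, lay inside the annotated gene interval, which starts at 33915899. Other forms of the boxes were not searched, so the search cannot tell whether Nlrc5 acts on Tapbp. The Tapbp transcript has a GC content of 57.1%, within the fifth of genes with the highest GC content, whose median log2 fold change was 0.26.

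The call of Tapbp was lost without some libraries, while its fold change stayed above 0. It passed in 9 of 13 alternatives. The adjusted p was 0.096 without control replicate 2, 0.076 without control replicate 3, 0.11 without knockout replicate 1 (log2 fold changes 0.68, 0.71 and 0.52) and 0.051 under the length and GC offset (log2 fold change 0.50). Tapbp shares part of its interval with Zbtb22, a zinc finger gene on the same strand. Zbtb22 stood at 0.18 on the log2 scale (SE 0.11, adjusted p = 0.3 in edgeR), and was looked at after the Tapbp values were seen.

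Psmb10 encodes a catalytic subunit of the immunoproteasome, the form of the proteasome that favours peptides suited to class I molecules. It was at 1.72, 2.66 and 2.73 CPM in the controls and 1.36 and 2.08 CPM in the knockouts. Knockout replicate 2 lay within the range of the controls. The log2 fold change was -0.46 (SE 0.37, 95% interval -1.32 to 0.39, adjusted p = 0.4 in edgeR), and Psmb10 passed in 0 of 13 alternatives.

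Per kb of annotated exon, which allows levels of different genes to be compared, B2m was the highest in the control lenses at 7.36 ± 1.57 CPM per kb (SD, n = 3). Tapbp followed at 4.43 ± 0.328 and Nlrc5 at 4.41 ± 0.701 CPM per kb, and the ranges of these neighbours overlapped. Psmb10 was at 1.39 ± 0.329, H2-K1 at 0.321 ± 0.139 and H2-D1 at 0.227 ± 0.166 CPM per kb, and the ranges of the 2 heavy chains overlapped. In the knockouts Nlrc5 stood at 0.418 ± 0.0544 CPM per kb (SD, n = 2). It was then below Psmb10 (1.01 ± 0.299) and below H2-K1 (0.622 ± 0.0528).

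Other genes of class I presentation were taken from a list for each step. Of 23 further class I and class I-like heavy chain genes, 5 were in the table, and 1 fell and 0 rose. Over all genes tested, 8.51% were lower and 7.98% higher, and no list was tested as a set. The faller was Cd1d1, a class I-like molecule that presents lipids, which fell 1.98-fold from 9.82 ± 1.16 to 4.95 ± 1.53 CPM (SD, n = 3 and 2; log2 fold change -0.99, SE 0.24, adjusted p = 0.032 in edgeR). Its knockout values of 3.86 and 6.03 CPM both lay below the lowest control of 8.80 CPM. The median log2 fold change of the 5 genes was 0.40. The call of Cd1d1 was lost in 5 of 13 alternatives, with an adjusted p of 0.054 under the length and GC offset, and of 0.057, 0.12, 0.076 and 0.16 without control replicate 1, 2 or 3 or knockout replicate 1.

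Peptide loading and trimming was represented by 7 genes, of which 2 fell and 0 rose (median log2 fold change -0.17). The shares over all genes tested were 8.51% lower and 7.98% higher. Canx encodes calnexin, a lectin chaperone that folds new heavy chains among many other glycoproteins. It fell 1.38-fold, from 744 ± 53.7 to 541 ± 54.1 CPM (adjusted p = 0.031 in edgeR). Tpp2, a peptidase that trims the peptides released by the proteasome, fell 1.35-fold, from 129 ± 3.12 to 95.6 ± 9.23 CPM (adjusted p = 0.022 in edgeR). Under the length and GC offset the log2 fold changes were -0.26 for Canx and -0.04 for Tpp2, and neither passed (adjusted p = 0.064 and 0.71). Nor did they without control replicate 2, control replicate 3 or knockout replicate 1, where the adjusted p was 0.11, 0.098 and 0.18 for Canx and 0.082, 0.075 and 0.13 for Tpp2.

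Among proteasome genes outside the immunoproteasome a minority fell and 0 rose, while 8.51% of all genes tested were lower and 7.98% higher. Pomp, which assembles the proteasome, fell 1.59-fold from 58.7 ± 10.8 to 37.0 ± 7.92 CPM (adjusted p = 0.045 in edgeR), while the activator genes Psme1 and Psme2 did not pass. Psmb5, Psmb6 and Psmb7 encode the catalytic subunits that Psmb8, Psmb9 and Psmb10 replace in the immunoproteasome. Psmb7, the counterpart of Psmb10, fell 1.39-fold from 75.1 ± 10.1 to 54.1 ± 6.63 CPM (adjusted p = 0.047 in edgeR). Its log2 fold change of -0.47 was close to the -0.46 of Psmb10, and only the first passed the test. That difference between the 2 genes was not tested. Among the other 11 subunits of the 20S core 2 fell and 0 rose, Psma3 (1.33-fold, adjusted p = 0.044 in edgeR) and Psma6 (1.39-fold, adjusted p = 0.041), and the median log2 fold change was -0.41. The groups did not overlap, with the knockouts lower, for 9 of these 11, against 27.0% of all genes tested. Under the length and GC offset Psmb7, Psma3 and Psma6 were at -0.17, -0.11 and -0.16 and did not pass, and Pomp was at -0.67 with an adjusted p of 0.061. With scaling by library totals Pomp, Psmb7, Psma6 and Psma3 did not pass either (adjusted p = 0.053, 0.07, 0.059 and 0.077), nor did Pomp and Psmb7 in limma-voom (0.051 and 0.054). Of the 11 core subunits 0 fell without control replicate 2, control replicate 3 or knockout replicate 1, 5 without control replicate 1 and 7 without knockout replicate 2. Pomp and Psmb7 did not pass without control replicate 2 (adjusted p = 0.14 and 0.15), control replicate 3 (0.12 and 0.14) or knockout replicate 1 (0.23 and 0.25).

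**Figure D2:**
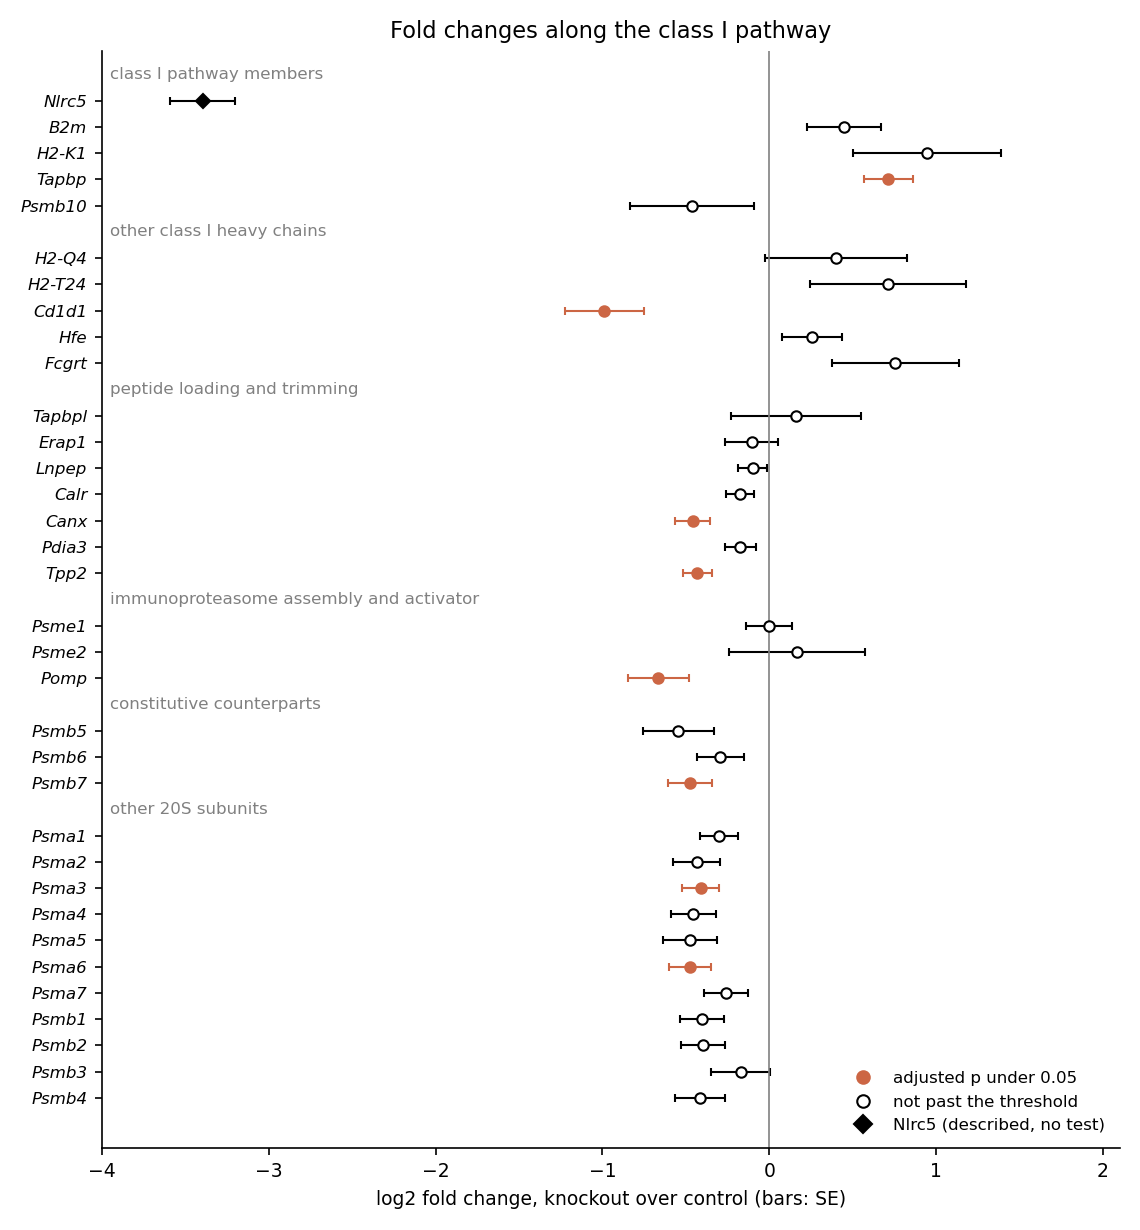
Log2 fold change of knockout over control (horizontal axis, bars are SE) for each tested gene of the class I pathway, grouped by step; filled orange circles passed edgeR's test and the black diamond is Nlrc5, shown without a test. Nlrc5 lies at -3.40, whereas all other genes lie between -0.99 (Cd1d1) and 0.95 (H2-K1).

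The genes for the DNA-binding partners of Nlrc5 were present and did not pass the test. Of 11 genes for RFX, NF-Y, CREB/ATF and the associated acetyltransferases, 0 were called by edgeR and 1 by DESeq2, with a median log2 fold change of 0.08. Over all genes tested, edgeR called 16.5%. By edgeR 4 of the 11 had an unadjusted p under 0.05, as did 4311 of all 12035 genes tested. The most abundant were the acetyltransferases Crebbp, at 232 ± 22.8 and 304 ± 40.1 CPM (log2 fold change 0.39, SE 0.12, adjusted p = 0.053 in edgeR), and Ep300, at 221 ± 20.5 and 249 ± 11.5 CPM (log2 fold change 0.18). Crebbp passed in 5 of 13 alternatives, DESeq2 (adjusted p = 0.0097) among them. Under the length and GC offset it was at 0.14 on the log2 scale and did not pass (adjusted p = 0.22 in edgeR). Nor did it pass without control replicate 2 (0.16) or control replicate 3 (0.15), and its log2 fold change was 0.25 without knockout replicate 1.

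Nlrc5 transcription is known to be induced by interferon gamma. Interferon-stimulated genes gave little to measure. Of 35 listed, 4 were in the table, namely Ifi35, Trim25, Samhd1 and Ube2l6, and edgeR called 0, with 0 at an unadjusted p under 0.05 and DESeq2 calling 0. All 4 had log2 fold changes above 0, with a median of 0.41, beside a median of 0.00 over all genes tested. For 2 of the 4 the groups did not overlap, with the knockouts higher, as for 25.5% of all genes tested. Samhd1, a nucleotide hydrolase, was at 37.5 ± 1.29 and 40.0 ± 1.08 CPM, and Trim25, a ubiquitin ligase, at 9.41 ± 1.82 and 12.0 ± 2.11 CPM. Of 5 NF-kappaB genes, which act on the NF-kappaB site of the heavy chains, Nfkb2 rose 1.46-fold from 12.98 ± 0.677 to 19.0 ± 0.12 CPM (adjusted p = 0.032 in edgeR). It was the only call in this list, beside 7.98% of all genes tested that were higher. All 5 NF-kappaB genes had log2 fold changes above 0, with a median of 0.38, and for 4 of them both knockouts exceeded every control. Under the length and GC offset Nfkb2 stood at 0.19 on the log2 scale, without a call (adjusted p = 0.41). It did not pass without control replicate 1 (0.054), 2 (0.094) or 3 (0.094) or knockout replicate 1 (0.12) either. Of 13 other genes of the NLR family only Nlrx1 was in the table, with 1.72 ± 0.48 and 3.22 ± 0.4 CPM (log2 fold change 0.91, SE 0.33, adjusted p = 0.092 in edgeR).

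Immune cells carry class I genes at high levels, so their markers are given beside B2m, H2-K1 and Tapbp. Of 15 markers, 11 were in the table and 10 were tested. Their summed level was 31.8 to 57.4 CPM in the controls and 63.1 and 66.0 CPM in the knockouts, so both knockout libraries were above the highest control. Cd68, a lysosomal protein of macrophages, rose 1.85-fold from 3.81 ± 0.365 to 7.06 ± 0.366 CPM (adjusted p = 0.031 in edgeR), and the other 9 did not pass. The share higher over all genes tested was 7.98%. Leaving out control replicate 2 or 3 or either knockout replicate gave Cd68 an adjusted p of 0.11, 0.096, 0.1 and 0.054. The median log2 fold change of the 10 markers was 0.67, beside 0.58 for the 4 tested class I targets, 1.98 for the 11 mesenchyme and 2.06 for the 8 retina markers, and none of the 10 immune, 11 mesenchyme or 8 retina markers was lower in the knockouts by its fold change. Of 8 MHC class II genes only H2-DMa was in the table, at 1.53 ± 0.467 and 2.11 ± 0.156 CPM (adjusted p = 0.4 in edgeR). Endothelial markers summed to 299 to 344 CPM in the controls and 300.3 and 320 CPM in the knockouts. The part of immune, mesenchyme or retina cells in the levels of B2m, H2-K1 and Tapbp was not tested.

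**Figure D3:**
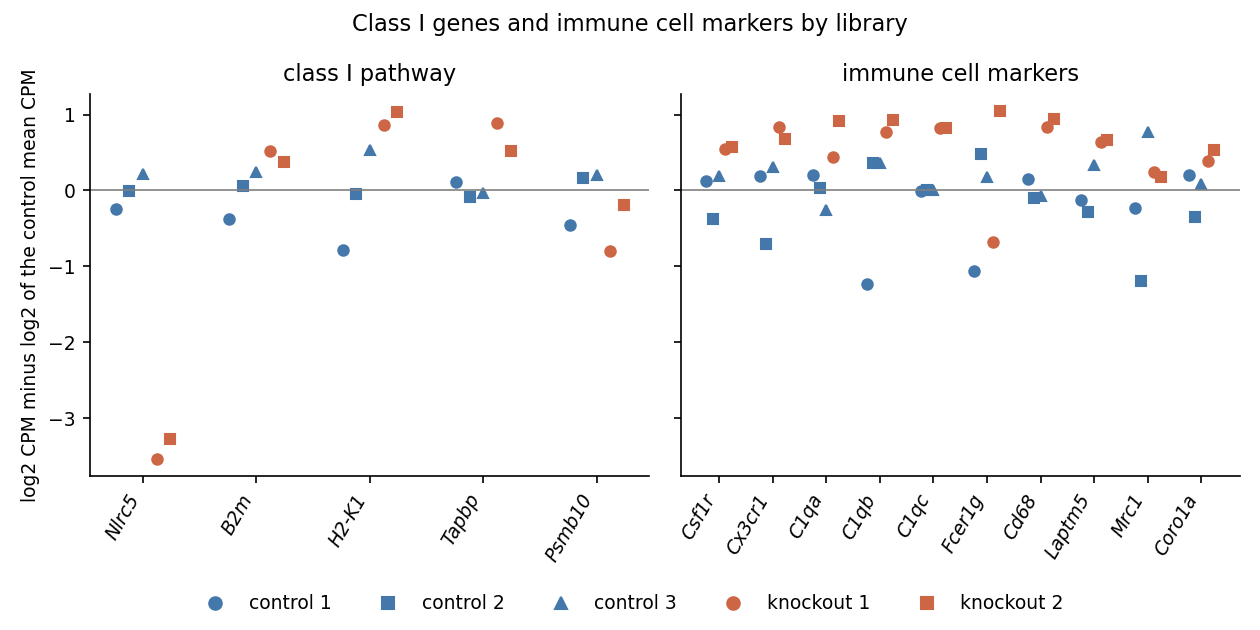
Level in each library relative to the control mean (vertical axis, log2 CPM minus log2 of the control mean CPM) for the 5 tested class I pathway genes (left) and the 10 tested immune cell markers (right); blue marks are control and orange marks knockout libraries. B2m, H2-K1 and Tapbp are above 0 in both knockout libraries, as are 9 of the 10 immune markers, while Nlrc5 is lower by more than 3 units.

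The position of Nlrc5 was also examined, because genes of very different fold lie close to it. Of the 18 genes considered whose start lies within 500 kb of the Nlrc5 start, 16 were tested, and 2 were higher, 1 lower and 13 not called. Over all genes tested, 7.98% were higher and 8.51% lower. Mt1, a metallothionein gene, starts 255 kb before Nlrc5 and had the largest rise of all genes tested. Control counts of 2, 5 and 6 stood against 1325 and 1356 knockout counts (log2 fold change 8.14, SE 0.19, adjusted p = 9.7e-07 in edgeR). Mt2, a second metallothionein gene that starts 262 kb before Nlrc5, had 1, 5 and 6 counts against 8 and 7 and was below the filter. Only 3 tested genes had a lower log2 fold change than Nlrc5, which was itself chosen for its fall. The interval was examined because of the folds in it, so the nearness of Mt1 and Nlrc5 is a description and was not tested.

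Of the other 15 tested genes 2 had a log2 fold change above 1, Cpne2 and Ccdc102a, and the lowest was -0.44. Nup93, a nuclear pore gene between Mt1 and Nlrc5, was at 45.3 ± 2.33 and 44.2 ± 1.44 CPM (log2 fold change -0.04, adjusted p = 0.81 in edgeR). Herpud1, a gene of the endoplasmic reticulum stress response that starts 47.9 kb before Nlrc5, was at 30.04 ± 2.62 and 24.7 ± 0.668 CPM (log2 fold change -0.28, adjusted p = 0.12). Cpne2, a copine gene that starts 98.6 kb after the Nlrc5 start, rose 2.05-fold from 4.06 ± 0.689 to 8.35 ± 0.166 CPM (adjusted p = 0.023 in edgeR), and Arl2bp fell 1.30-fold (adjusted p = 0.047). The 13 genes without a call had log2 fold changes from -0.44 to 1.05, the highest in Ccdc102a (SE 0.31, adjusted p = 0.055). Cpne2 did not pass in 4 of 13 alternatives, among them those without control replicate 2 (adjusted p = 0.07), control replicate 3 (0.07) or knockout replicate 1 (0.084). Arl2bp did not pass in 6, with 0.15, 0.14 and 0.27 without the same libraries, and Mt1 passed in all 13. Whether the groups differ in sequence around Nlrc5 was not tested.

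**Figure D4:**
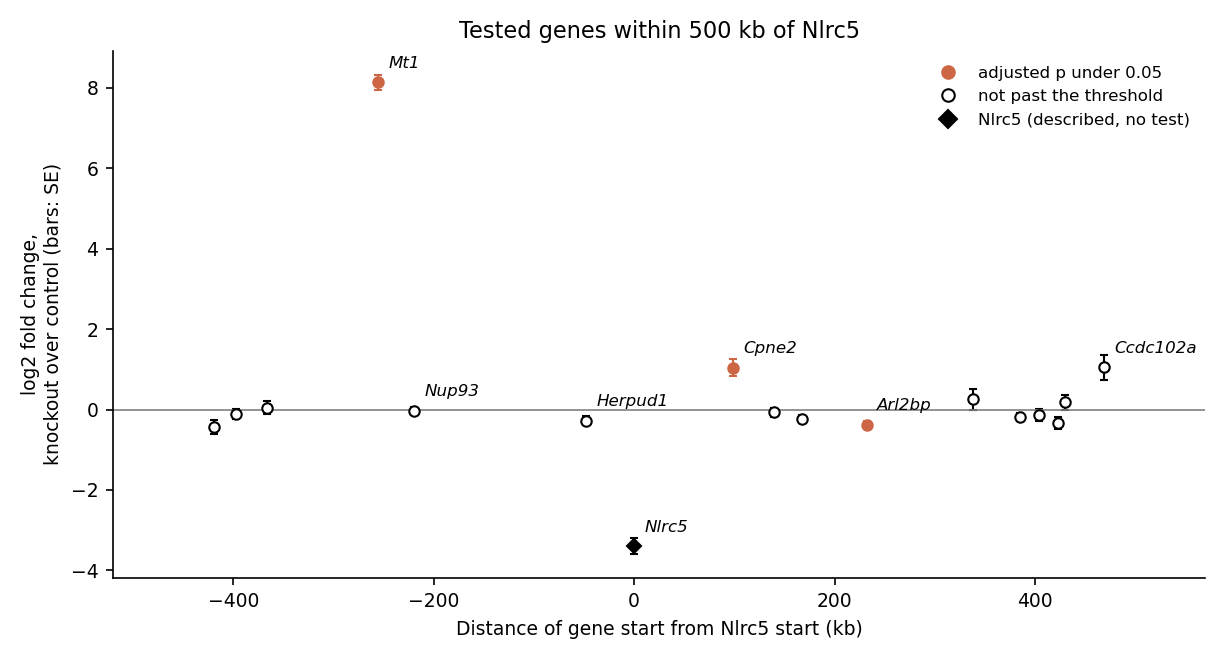
Log2 fold change of knockout over control (vertical axis, bars are SE) against the distance of each gene's start from the Nlrc5 start in kb (horizontal axis) for Nlrc5 and the 16 tested genes considered within 500 kb. Mt1 at 8.14 and Nlrc5 at -3.40 stand apart from their neighbours, which lie between -0.44 and 1.05.

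The transcripts most like Nlrc5 across the 5 libraries were sought by the root mean square difference of log2 (CPM + 1) values, each centred on its own mean. Nearest was Dnase2b, the nuclease that degrades DNA in maturing lens fibre cells, with a difference of 0.20. It was at 29.6, 44.4 and 51.2 CPM in the controls and 5.01 and 5.45 CPM in the knockouts. For both genes control replicate 1 was the lowest control and control replicate 3 the highest. Tmprss11e, a transmembrane serine protease (0.33), Birc7, an inhibitor of apoptosis (0.56), Lrrtm2, a leucine-rich repeat protein of synapses (0.61), and Scn11a, a sodium channel (0.62), followed. These genes were picked for a pattern like that of Nlrc5, so their levels are no further evidence for it, and 5 libraries in 2 groups give many genes a similar pattern.

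A last comparison used the promoter pair alone. In all, 27 gene symbols had a RefSeq window with TGACG and ATTGG at the spacing of B2m, H2-K1 and H2-D1, on either strand. These genes were themselves among the 27, so the comparison is not independent of the values above. Of the 27, 20 were in the table and 19, B2m and H2-K1 included, were tested, and 0 rose and 2 fell. The 2 genes were Trim26, a ubiquitin ligase gene (log2 fold change -0.45, SE 0.096, adjusted p = 0.025 in edgeR), and Ghitm, a mitochondrial membrane protein gene (-0.41, SE 0.097, adjusted p = 0.032). Both were named after their values were seen, and their calls were not followed over the alternative analyses. Over all genes, 1984 were called in the main fit and 38 without control replicate 2. The share of Trim26 and Ghitm among the 19 genes was near the 8.51% of all genes tested that were lower.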

How the data were processed

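The 10 genes and all gene lists were chosen with earlier results of these data known. Raw gene counts for the 5 libraries came in 1 deposited table, per the file headers, with 61 of 12370 symbols at 0 throughout. Per the submitters' processing notes, the tools were HTSeq 0.6.1, TopHat2 2.0.13, DESeq2, Trim Galore 0.3.7 and Cufflinks 2.2.1, and the build mm10, with no role or order stated. Strand setting, annotation and symbol selection: not given in the sources used here. Reads of overlapping genes cannot be told apart.

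Groups came from the sample titles. Counts were tested in edgeR 4.0.16 (R 4.3.3) with filterByExpr (minimum count 10, 335 symbols removed), TMM scaling, glmQLFit and glmQLFTest without covariates, and Benjamini-Hochberg adjustment over all 12035 genes tested. Each SE was obtained from the log2 fold change and the F statistic, and 95% intervals use the test's degrees of freedom. DESeq2 1.42.0 and limma 3.58.1 (voom) were alternatives, with other scalings, filters, a replicate block, an offset for transcript length and GC content (loess, span 0.5, known for 98.1% of tested genes) and each library left out. On simulated data with 200 of 12035 genes changed, this test recovered 34.4% of 1.5-fold and 68.6% of 2-fold changes. It also called a mean of 13.6 genes per simulation that had not been changed.

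Libraries of a group differed by more than sampling noise (chi-square over degrees of freedom 9.98 to 23.4), so each counted as 1 sample, and p-values reflect only how much these pools vary, which may be technical. Positions and exon lengths are from GENCODE vM21 (GRCm38, the build mm10). Named genes were the 10 genes, up to 4 called genes of each list (or the 2 most abundant where none was called), tested genes within 500 kb of Nlrc5, and the 5 genes nearest to it in pattern with a mean of at least 1 CPM. A list of genes and a neighbouring gene are not reported here.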

Additional observations from a re-analysis of the deposited data

How the results depend on the processing

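The sign of the fold change was kept for all 4 tested target genes in every alternative in which they could be fitted, and Nlrc5 was lower in all 13. The number of targets called was 1 in all but the leave-one-out fits, where it ran from 0 to 1. Under the length and GC offset the 1 call was B2m instead of Tapbp. Over all genes, 1984 were called, against 1182 under the length and GC offset, 995 with the replicate block and 38 to 2717 when 1 library was left out, the lowest without control replicate 2. Of the other class I, interferon-stimulated and NF-kappaB lists 8 genes were called, against 1 under that offset, 5 with the replicate block and 0 to 16 when 1 library was left out. Scaling by library totals gave 1511 higher and 637 lower genes in place of 960 and 1024. Deviations from the group means correlated between the groups at -0.07 for replicate 1 and 0.04 for replicate 2. With 2 knockout libraries the knockout deviations mirror each other, so these values cannot settle whether replicates were paired. With the replicate block Tapbp had a log2 fold change of 0.69 and passed (adjusted p = 0.04 in edgeR). Changes of sign concerned uncalled genes with values near 0, namely Nup93 (0.048 with library totals, 0.031 under the offset), Fam192a (0.012 with library totals) and Ep300 (-0.033 under the offset). When 1 library was left out Ogfod1 ran from -0.19 to 0.014, Bbs2 from -0.012 to 0.17 and Fam192a from -0.13 to 0.020. In H2-D1, with 3 to 14 counts per library, the depth does not allow a direction to be read: its log2 fold change was 0.29 without knockout replicate 1 and -1.41 without knockout replicate 2. The cause of these changes was not tested.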
